A study of Equus caballus with 45 samples.

Results

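The genes described here are 9 genes of tryptophan catabolism and of the aryl hydrocarbon receptor, out of 20881 protein-coding genes counted in 45 RNA sequencing libraries of equine cells. They were chosen by gene symbol and by role, with earlier results of these libraries known. Of the 9, 4 are enzymes that consume tryptophan or its products and so make candidate receptor ligands (IDO1, IL4I1, KYNU and KMO). The other 5 are the receptor AHR, its repressor AHRR and its target genes CYP1A1, CYP1B1 and TIPARP. No cut-off on a measured value set the membership, so no gene lies just inside or outside it. Because the choice was made with results in view, the p-values below describe size against spread and are not independent support for the choice.

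IDO1 (indoleamine 2,3-dioxygenase) opens the kynurenine pathway by oxidising tryptophan and is a well known interferon-inducible gene of myeloid cells. KMO hydroxylates kynurenine and KYNU cleaves kynurenine and its hydroxylated form, while IL4I1 is a secreted amino acid oxidase that turns aromatic amino acids, tryptophan included, into keto acids. Kynurenine and indole keto acids can bind AHR, a ligand-activated transcription factor that pairs with ARNT in the nucleus. Its target genes include CYP1A1 and CYP1B1, which encode monooxygenases, and AHRR and TIPARP, whose products restrain the receptor in a feedback loop. Species differ in how mesenchymal stromal cells (MSC) handle tryptophan, and IDO1 is widely studied in human MSC as an immunomodulatory enzyme.

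The study asked how MSC activated through innate immune receptors change joint cells. Bone marrow MSC of 3 young adult horses, labelled PC, 99 and 92, were left untreated or given the TLR3 agonist poly I:C, the STING agonist 2′3′cGAMP or an agent labelled CpG, with 1 library for each donor and condition (12 libraries). The labels give the poly I:C and cGAMP dose as 10 ng/mL and the design text as 10 μg/mL, and the exposure lasted 2 h. Conditioned medium (MSC-CM) from MSC of donors labelled PC, ORC and AG1, which had been left resting or activated through TLR3 or STING, was then put for 24 h on synoviocytes, chondrocytes and blood monocyte-derived macrophages that also received IL-1β and TNF-α. Each of these 9 groups has 3 libraries, 1 per MSC donor. The codes PC, ORC and AG1 are read here as the MSC donor of the medium, which is an inference. Titles of joint cell libraries without medium carry ORC or PC too, and only PC also labels MSC libraries. Each joint cell type also has 1 library with the cytokines only and 1 with no addition, for 11 libraries per cell type. The joint cells of a type came from 1 horse, so their 3 libraries per group differ in the donor of the medium and not in the donor of the cells. All joint cells were washed and kept a further 24 h before RNA was taken. The labelled cytokine dose was 20 ng/mL for synoviocytes and 10 ng/mL for macrophages, and the chondrocyte labels give none. The paper's methods instead give 20 ng/mL for macrophages as well, and state that chondrocytes were stimulated in the same way as synoviocytes.

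Each library held between 23525704 and 54103873 counts, so that 3 counts, taken here as the limit that a count of 0 allows, equal 0.0562 to 0.127 CPM, the count scaled to a library of 1e+06 counts. Levels are CPM after TMM scaling within each table, and the MSC table and the joint cell table were scaled apart. The macrophage libraries carried macrophage markers at a summed 8190 to 12600 CPM, against at most 19.6 CPM in synoviocytes and 38.7 CPM in chondrocytes. They also carried T cell markers (5 of 5 detected) at 250 to 423 CPM, which were at most 0.0728 CPM in synoviocytes and 0 in chondrocytes. COL2A1, the defining collagen of cartilage, reached at most 0.383 CPM in chondrocytes, whereas ACAN, which encodes aggrecan, ran from 6.07 to 97.2 CPM. The 14 chondrocyte markers together did not separate the labelled chondrocytes, at a summed 162 to 740 CPM against 150 to 345 CPM in synoviocytes and 214 to 865 CPM in MSC. Synovial fibroblast markers were at 1750 to 2000 CPM in synoviocytes and 771 to 962 CPM in chondrocytes. In bulk samples such as these, more cells of a type and more RNA per cell cannot be told apart. Replicate libraries of MSC come from separate horses, and those of joint cells from separate media on cells of 1 horse. A p-value between joint cell types therefore measures size against the spread between media, not between horses or cell preparations.

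Some libraries stood apart before any comparison was made. The 3 chondrocyte libraries given medium of donor ORC lay outside the range of the other 6 chondrocyte libraries with medium for 36.9% of 14304 genes. CXCL8, IL6 and MMP1, cytokine-responsive genes named after their values were seen, were at 0.0534, 0.311 and 0.25 of the mean of the other 6. These libraries were nearer to the library with no addition than the others were for AHR, CYP1B1 and CYP1A1. Their AHRR (10.8 to 15.8 CPM) lay below both no addition (19.9 CPM) and cytokines only (26.6 CPM). Over genes with at least 10 counts in total, their mean absolute log2 distance was 0.297 to 0.332 from no addition and 0.304 to 0.324 from cytokines only. For the other 6 these distances were 0.334 to 0.368 and 0.125 to 0.172. Chondrocyte results are therefore given with and without them. Summed interferon-induced genes were 776 CPM in the synoviocyte library with TLR-MSC-CM of ORC (591 to 621 CPM in the other 8 with medium) and 837 CPM in the chondrocyte library with STING-MSC-CM of AG1 (506 to 559 CPM in the other 8). Their part in the results was not tested. In MSC, the library labelled TLR3 agonist of donor 92 held MX1, an interferon-induced gene, at 3.64 CPM against 6.85 CPM untreated, while donors 99 and PC reached 519 and 633 CPM with the same agonist.

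Among the joint cells, the enzymes were highest in macrophages. IDO1 had 0 counts in the 11 synoviocyte and the 11 chondrocyte libraries. In MSC it had 0 counts in 11 of 12 libraries and 7 counts (0.16 CPM) in the TLR3 library of donor 99. In macrophages it ran from 38.5 CPM with no addition to 99.9 CPM with TLR-MSC-CM of donor AG1. KYNU had 0 counts in MSC and chondrocytes, at most 2 counts in a synoviocyte library, and 28.1 to 69.6 CPM in macrophages. Set against the highest limit among the 3 libraries compared, IDO1 with resting MSC-CM was at least 398-fold higher in macrophages than in synoviocytes and at least 355-fold higher than in chondrocytes. For KYNU the same bounds were 388-fold and 346-fold. The macrophage libraries do not overlap with any other library for either gene, and the share of all genes for which this holds was not counted.

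KMO was graded rather than on or off. MSC had 0 counts in 12 of 12 libraries, chondrocytes 0 to 8 counts, synoviocytes 3 to 73 counts (0.108 to 2.78 CPM) and macrophages 18.4 to 33.4 CPM. With resting MSC-CM, macrophages averaged 27.3 CPM and synoviocytes 0.789 CPM, a 34.1-fold difference (log2 fold change 5.09 ± 0.512 SE, adjusted p = 5.64e-09). Chondrocytes averaged 0.0945 CPM, below synoviocytes by a log2 fold change of −2.99 ± 0.863 (adjusted p = 0.0153). That last call rested on few counts and was lost without the synoviocyte library of donor PC (adjusted p = 0.121) or the chondrocyte library of donor AG1 (adjusted p = 0.0782). IL4I1, in contrast, was read in every library. It ran from 4.95 to 7.35 CPM in synoviocytes, 5.04 to 8.55 CPM in chondrocytes, 7.81 to 90.9 CPM in MSC and 57.5 to 177 CPM in macrophages. With resting MSC-CM it was 19-fold higher in macrophages than in synoviocytes (adjusted p = 2.99e-11) and 18.3-fold higher than in chondrocytes (adjusted p = 3.36e-11). Chondrocytes and synoviocytes, at means of 6.09 and 5.86 CPM, did not differ beyond their spread (log2 fold change 0.05 ± 0.305).

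**Figure D1:**
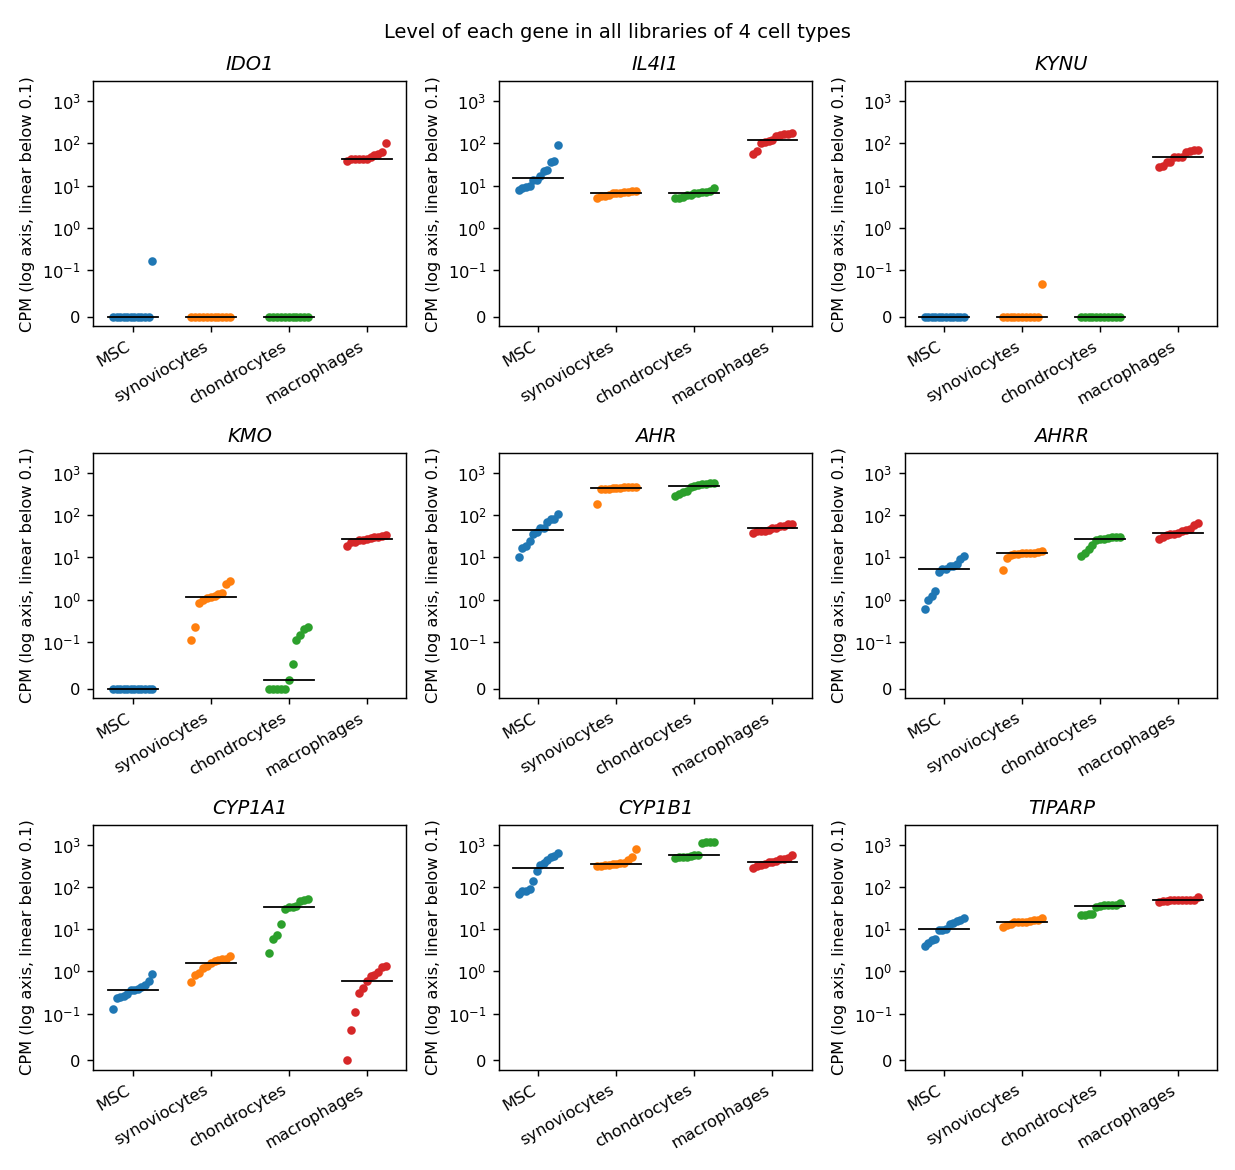
CPM of each gene (vertical axis, logarithmic above 0.1 CPM and linear below) in the 12 MSC libraries and the 11 libraries of each joint cell type, 1 point per library, ordered by value within a cell type, with a black line at the median. IDO1 and KYNU lie at or near 0 outside macrophages, AHR is lowest in MSC and macrophages, and CYP1A1 is highest in chondrocytes. MSC and joint cells were scaled in separate tables.

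The receptor ran the other way. With medium, AHR was at 420 to 469 CPM in synoviocytes and 315 to 584 CPM in chondrocytes, but 38.7 to 62.5 CPM in macrophages and 10.3 to 109 CPM in MSC. With resting MSC-CM the macrophage mean of 49.4 CPM gave a log2 fold change of −3.15 ± 0.216 against synoviocytes (adjusted p = 6.61e-12) and of −3.3 ± 0.217 against chondrocytes (adjusted p = 3.26e-12). These p-values measure spread between media on cells of 1 horse. The labelled cytokine dose also differed between these cell types (10 ng/mL in macrophages, 20 ng/mL in synoviocytes), and its part was not tested. With no addition, AHR was at 42.7 CPM in the single macrophage library, 180 CPM in synoviocytes and 289 CPM in chondrocytes. With cytokines only, the same values were 41.3, 459 and 475 CPM. Chondrocytes and synoviocytes did not differ beyond their spread (487 against 438 CPM, adjusted p = 0.672). AHRR, the repressor, was highest in macrophages at 27.6 to 63.6 CPM with medium, followed by chondrocytes at 10.8 to 30.5, synoviocytes at 9.44 to 14.4 and MSC at 0.594 to 10.9. Over all libraries its CPM per 100 CPM of AHR were 54.7 to 126 in macrophages and at most 22.5, 6.87 and 3.42 in MSC, chondrocytes and synoviocytes. Gene length does not enter into a comparison of this ratio between cell types.

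The target genes did not follow the receptor's order. CYP1A1 was highest in the labelled chondrocytes, at 5.93 to 48.4 CPM with medium, against 0.826 to 2.30 CPM in synoviocytes, 0 to 1.31 CPM in macrophages and 0.128 to 0.887 CPM in MSC. In the single chondrocyte library with no addition it was at 2.78 CPM, against 52.9 CPM in the one with cytokines only. With resting MSC-CM chondrocytes exceeded synoviocytes 20.4-fold (log2 fold change 4.35 ± 0.803, adjusted p = 0.000319), and macrophages against chondrocytes gave −5.68 ± 0.882 (adjusted p = 4.64e-06). Macrophages and synoviocytes did not differ by the test (−1.33, adjusted p = 0.222), though without the macrophage library of donor AG1 the value was −4.3 (adjusted p = 0.0189). TIPARP, an ADP-ribosyltransferase, rose from synoviocytes (13.3 CPM) over chondrocytes (31.8 CPM) to macrophages (49.5 CPM). The steps were 2.37-fold (adjusted p = 7.58e-05) and 1.56-fold (adjusted p = 0.00611), the second 1.34-fold without the 3 ORC chondrocyte libraries (adjusted p = 0.00289) and not called without the resting-medium ORC chondrocyte library alone (adjusted p = 0.0519). CYP1B1 was high in every joint cell type, with 309 to 506 CPM in synoviocytes, 485 to 1180 CPM in chondrocytes and 278 to 566 CPM in macrophages.

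Of the 9 genes, 7 had at least 10 counts over the 9 libraries with medium of each joint cell type, a recount chosen after seeing the data. IDO1 and KYNU entered the fit through macrophages alone, so they are left out of the counts by the adjusted p that come next. By the adjusted p, 3 of these 7 were higher and 1 lower in chondrocytes than in synoviocytes, where 21.4% of all 16584 genes and 23.6% of the genes read in both cell types were called. In macrophages against synoviocytes 4 of 7 were higher and 1 lower (70.2% of all genes and 73.2% of those read in both), and against chondrocytes 4 were higher and 3 lower (69.6% and 73.2%). By the study's thresholds on p and fold change, 2, 5 and 6 of the 9 genes passed in these comparisons, beside 7.64%, 31.3% and 30.9% of all genes. The 5 and the 6 include IDO1 and KYNU, so they are not read against those shares. Without the 3 ORC chondrocyte libraries the first count became 4 higher and 1 lower (background 27.5%). In the last comparison CYP1B1 alone of the 7 genes was no longer called (background 69.2%). AHRR was then 2.16-fold higher in chondrocytes than in synoviocytes (adjusted p = 1.02e-05, against 0.0528 with them and 0.0327 by DESeq2 with them, where DESeq2 called 24.1% of genes). The excess of AHRR in macrophages over chondrocytes was 1.64-fold (adjusted p = 0.0358), and 1.34-fold without the 3 ORC chondrocyte libraries, where it still passed (adjusted p = 0.0182). It did not pass without the resting-medium ORC library alone, of chondrocytes (adjusted p = 0.197) or of macrophages (adjusted p = 0.13). CYP1B1 no longer differed between macrophages and chondrocytes by the test (log2 fold change −0.32 against −0.86 with them, adjusted p = 0.0883), and its excess over synoviocytes was 1.58-fold and still passed (adjusted p = 0.00457, against 2.29-fold with them). Without the resting-medium ORC chondrocyte library alone, the excess was the same size and did not pass (adjusted p = 0.129), and the macrophage difference was also lost without the macrophage library of AG1 (adjusted p = 0.0538) or ORC (adjusted p = 0.0742). CYP1B1 in chondrocytes therefore rested in part on donor ORC, whose 3 libraries held 1160 to 1180 CPM against 485 to 571 CPM in the other 6.

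In MSC the question is whether activation switches on enzymes that could make receptor ligands. Of the 4 member enzymes, IL4I1 alone had more than 7 counts in any MSC library. Of the other tryptophan genes, TDO2 was at 2.37 to 8.11 CPM and KYAT3, an aminotransferase, at 51 to 109 CPM in MSC. In donor 99 IL4I1 stood at 21.6 CPM untreated, 37 CPM with the TLR3 agonist and 90.9 CPM with the STING agonist. In donor PC the same values were 13.8, 22.8 and 37.4 CPM. In donor 92 they were 8.55, 7.81 and 9.80 CPM, so that donor 92 lay below the other donors in every condition, while the ranges of PC and 99 overlapped. The STING agonist library was thus higher than the untreated one in 3 of 3 donors, by 4.2-fold, 2.7-fold and 1.15-fold. CpG left the gene at 16.8, 13.8 and 9.24 CPM in donors 99, PC and 92.

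Over the 3 donors the log2 fold change of IL4I1 with the STING agonist was 1.67 ± 0.807, which did not pass (unadjusted p = 0.0708, adjusted p = 1). With the donor as a block it was 1.28 ± 0.293 (unadjusted p = 0.00191, adjusted p = 0.151). Leaving out the STING library of donor 99 brought the first value to 0.69, the lowest of 9 such values (highest 2.13). With the TLR3 agonist the change was 0.64 ± 0.791 (adjusted p = 1), higher in 2 of 3 donors, and 0.06 without the TLR3 library of donor 99. Donor 92, which went the other way, is also the donor whose TLR3 library showed no rise of MX1. In the STING library of donor 92, MX1 was at 661 CPM, with IL4I1 at 9.80 CPM against 8.55 CPM untreated. A link of IL4I1 to MX1 was not tested. Of 15 macrophage markers, CD68, which encodes a lysosomal protein, was higher with the STING agonist in 3 of 3 donors, as IL4I1 was, at 12 to 15.1 CPM untreated and 50.8 to 327 CPM with the agonist. The other 14 were at most 1.06 CPM in these libraries, and CD163, AIF1, C1QB, C1QC and VSIG4 were at 0. The part of CD68 in the result was not tested.

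In MSC, AHR and CYP1B1 differed between donors more than between conditions. AHR was at 69.4 to 109 CPM in donor 92, 35.5 to 50.4 CPM in donor PC and 10.3 to 24.6 CPM in donor 99, so that the 3 donors did not overlap. Donor differences were not particular to these genes, since same-donor deviations correlated at 0.657 to 0.905 over 12996 genes in MSC. The share of all genes whose donors do not overlap was not counted. CYP1B1 had the reverse position of donor 92, at 67.2 to 90.0 CPM, against 141 to 376 CPM in donor 99 and 426 to 623 CPM in donor PC. AHRR was higher with the STING agonist in 3 of 3 donors, by 1.43-fold, 1.35-fold and 1.37-fold in PC, 99 and 92, with a log2 fold change of 0.51 ± 1.00 (0.05 without the STING library of PC) and of 0.50 ± 0.317 within donors (adjusted p = 0.687). CYP1A1 stayed between 4 and 36 counts per library and TIPARP between 3.95 and 18.4 CPM.

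By edgeR no gene of the 9 was called in MSC with TLR3 agonist, STING agonist or CpG against untreated or between both agonists, and 0% of all genes tested were called in each of these. At an unadjusted p under 0.05 the count among the 6 members tested was also 0, against 171, 312 and 46 of all genes with TLR3 agonist, STING agonist and CpG, and 36 between the agonists. DESeq2 called none of the 9 either, beside 0.35%, 0.639%, 0% and 0.00672% of genes with TLR3 agonist, STING agonist, CpG and between the agonists. With the donor as a block, 0.0134% of genes passed for the STING agonist and no member was among them. Without the block, edgeR also called 0 of 12 interferon-induced genes with either agonist against untreated. Their median log2 fold changes were 4.47 with TLR3 agonist and 4.97 with STING agonist, and DESeq2 called 7 and 8 of them. A lack of edgeR calls in MSC therefore does not show a lack of response.

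**Figure D2:**
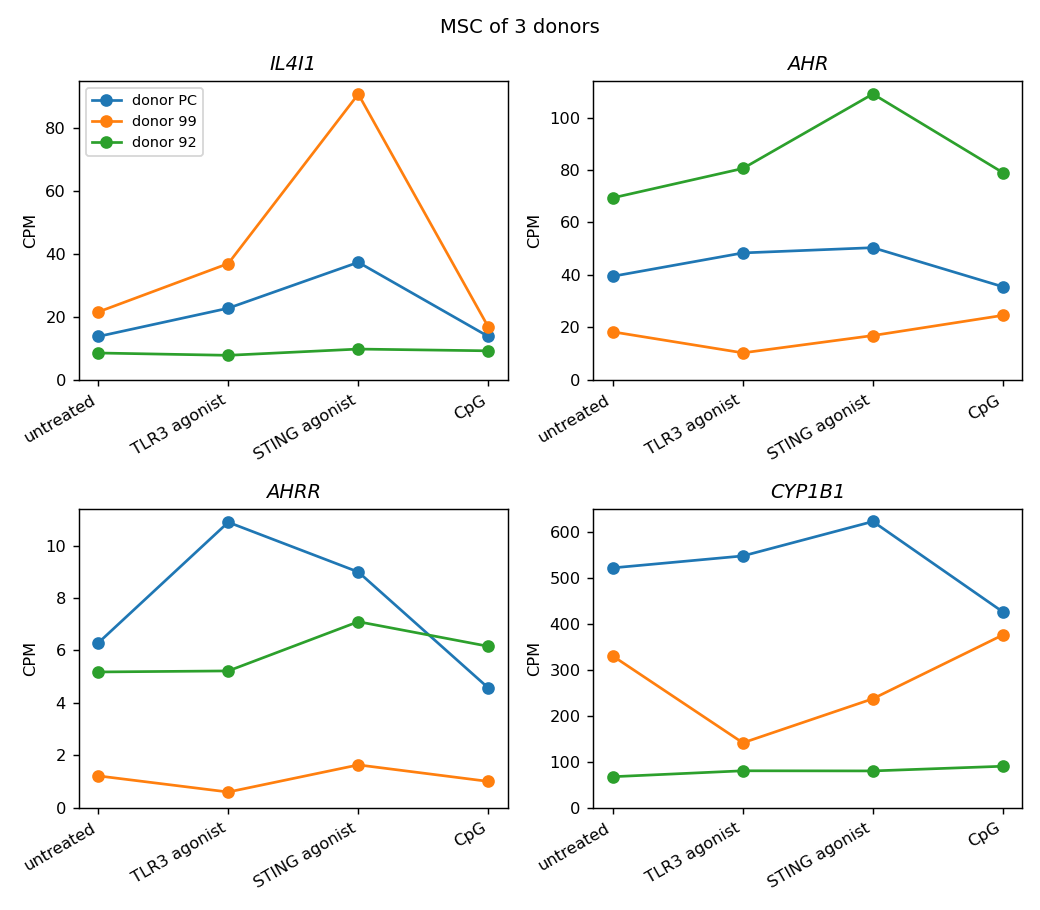
CPM (vertical axis, from 0) of IL4I1, AHR, AHRR and CYP1B1 in MSC of donors PC, 99 and 92, untreated or with TLR3 agonist, STING agonist or CpG, 1 point per library and 1 line per donor. IL4I1 reaches 90.9 CPM in donor 99 with the STING agonist, while donor 92 stays under 10 CPM, and AHR keeps the donors apart in each condition.

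In macrophages the medium of STING-activated MSC went with more AHRR and KYNU than the medium of TLR3-activated MSC. AHRR stood at 63.6, 58.2 and 45.2 CPM with STING-MSC-CM of donors AG1, ORC and PC. With TLR-MSC-CM it was at 27.6, 36.4 and 31.1 CPM, and with resting MSC-CM at 34.8, 46.3 and 35.2 CPM. The lowest STING library lay above the highest TLR library, whereas STING and resting libraries overlapped. The share of all genes with such a separation was not counted. KYNU was at 36.3, 61.6 and 68.1 CPM with STING-MSC-CM, 28.1, 36.4 and 46.7 CPM with TLR-MSC-CM and 29.4, 47.9 and 48.2 CPM with resting MSC-CM of the same donors. For KYNU the ranges overlapped, since medium of donor AG1 went with low values in all 3 conditions.

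STING-MSC-CM exceeded TLR-MSC-CM for AHRR by 2.31-fold, 1.60-fold and 1.45-fold in AG1, ORC and PC, a log2 fold change of 0.81 ± 0.168 by edgeR without a donor term (unadjusted p = 0.000624, adjusted p = 0.555). No gene was called in that fit (0% of 15052, with 994 at an unadjusted p under 0.05). DESeq2, also without a donor term, called AHRR (adjusted p = 0.0127) among 0.219% of genes. With the MSC donor as a block, edgeR called 2.23% of genes, 1.42% as higher with STING-MSC-CM, and AHRR (0.82 ± 0.118, adjusted p = 0.0136) and KYNU (0.56 ± 0.0888, adjusted p = 0.0179) were the 2 of 9 members among them. The calls of both genes were lost when either ORC library was left out, of TLR-MSC-CM (adjusted p = 0.0599 for AHRR and 0.0758 for KYNU) or of STING-MSC-CM (0.138 and 0.183), while their log2 fold changes stayed at 0.46 or more.

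Other members had higher values in 3 of 3 donors without passing. IL4I1 was higher with STING-MSC-CM than with TLR-MSC-CM in 3 of 3 donors, at 101, 169 and 150 CPM against 67.4, 108 and 120 CPM (within donors 0.51 ± 0.143, adjusted p = 0.09). KMO had values of 23.6, 33.4 and 28.4 CPM against 18.4, 26.9 and 25.2 CPM (within donors adjusted p = 0.099). CYP1B1 had values of 566, 496 and 461 CPM against 278, 395 and 416 CPM (within donors adjusted p = 0.0978). Within donors, DESeq2 and edgeR without a filter on low counts each called 4 members (AHRR, KYNU, IL4I1 and CYP1B1), beside 5.06% and 3.6% of genes. IDO1 was lower in 2 of 3 donors (log2 fold change −0.43 without a donor term, and −0.01 without the AG1 library of TLR-MSC-CM), since it was highest with TLR-MSC-CM of donor AG1 at 99.9 CPM, with 42.6 and 60.8 CPM for donors ORC and PC. AHR, TIPARP and CYP1A1 had log2 fold changes within donors of 0.23, 0.1 and 0.7 with adjusted p values of 0.263, 0.585 and 0.743.

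Some marker genes moved with the same contrast, in a fit within donors that called 2.23% of all genes. The summed macrophage markers were 9970 to 12600 CPM with STING-MSC-CM and 8190 to 11000 CPM with TLR-MSC-CM, and 2 of 15 (CD163 and MRC1) passed within donors, both higher with STING-MSC-CM. The T cell markers were 250 to 272 CPM against 280 to 423 CPM, the top value in the AG1 library that was also highest in IDO1, and 1 of 5 (CD5) passed, lower with STING-MSC-CM. Of 7 synovial fibroblast markers, summed at 80.8 to 192 CPM against 52.6 to 190 CPM, THY1 passed within donors and was lower with STING-MSC-CM (log2 fold change −1.02, adjusted p = 0.0402). The median log2 fold change over these 7 markers was 0.01. Of 3 B cell markers and 12 interferon-induced genes, 0 passed. The part of these marker genes in the values of AHRR, KYNU and IDO1 was not tested.

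Against resting MSC-CM, STING-MSC-CM went with AHRR higher in 3 of 3 donors (log2 fold change 0.53 ± 0.168, unadjusted p = 0.0102, adjusted p = 0.907, and 0.0748 within donors). KYNU was also higher in 3 of 3 (within donors 0.39 ± 0.0886, adjusted p = 0.077). No member was called without a donor term (0% of genes, 717 at an unadjusted p under 0.05), by DESeq2 without one (0.0332%), or by edgeR within donors, where 0.531% of genes were called. Within donors, DESeq2 and edgeR without a filter each called AHRR and KYNU, beside 2.3% and 1.29% of genes. TLR-MSC-CM against resting MSC-CM gave no member called by edgeR without or with the donor or by DESeq2 without it (0% of genes in each, and 320, 943 and 304 genes at an unadjusted p under 0.05). There, AHRR, KYNU and KMO were lower in 3 of 3 donors with log2 fold changes of −0.29, −0.17 and −0.21. IDO1 was 0.66 ± 0.246 higher (unadjusted p = 0.0223, adjusted p = 0.999), a value that fell to 0.25 without the AG1 library of TLR-MSC-CM. The contrasts share the libraries with resting, TLR or STING medium and are not independent of each other.

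**Figure D3:**
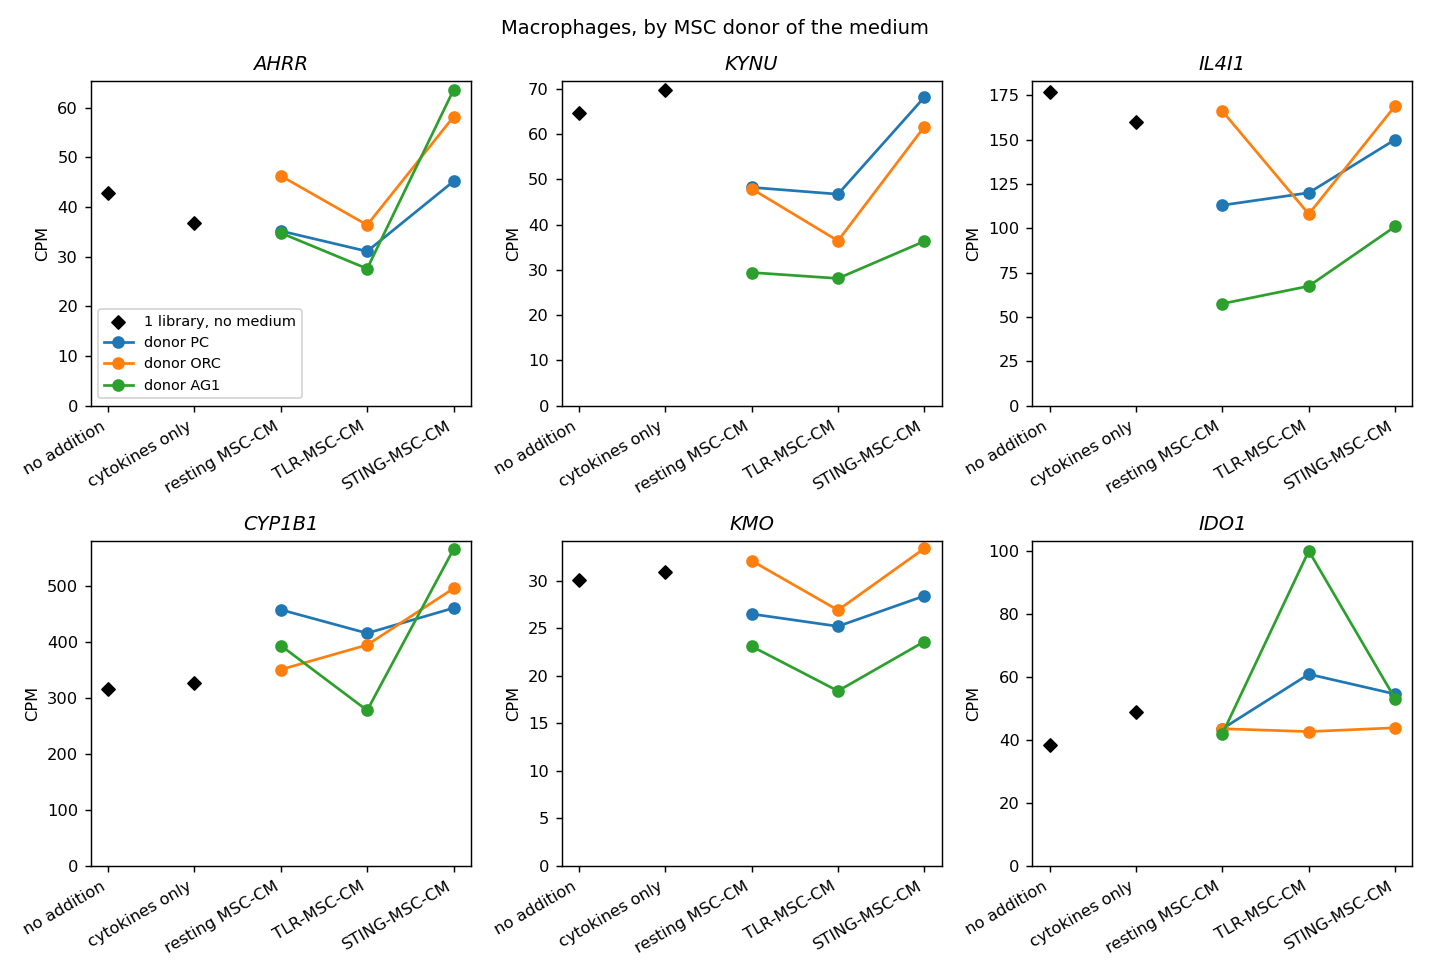
CPM (vertical axis, from 0) of AHRR, KYNU, IL4I1, CYP1B1, KMO and IDO1 in macrophages. Black diamonds are the single libraries with no addition and with cytokines only, and lines join the 3 media of each MSC donor. AHRR and KYNU are higher with STING-MSC-CM than with TLR-MSC-CM in each of the 3 donors, and IDO1 peaks at 99.9 CPM in 1 library.

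**Figure D4:**
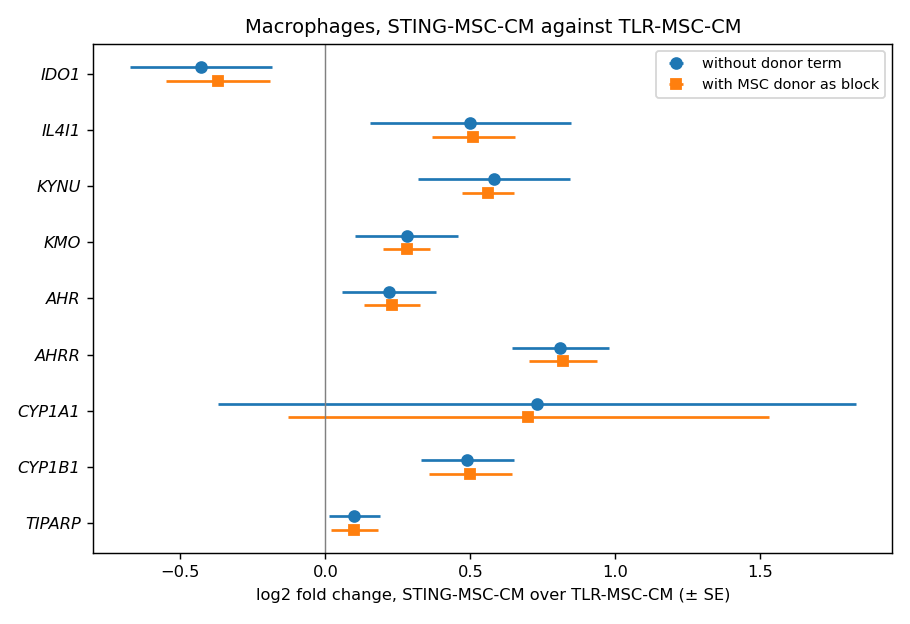
Log2 fold change (horizontal axis) of the 9 genes in macrophages, STING-MSC-CM over TLR-MSC-CM, with bars of ± 1 SE, by edgeR without a donor term (circles) and with the MSC donor as a block (squares). The estimates lie close together, and the bars of AHRR and KYNU are shorter with the block (0.118 against 0.168 and 0.0888 against 0.262).

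In synoviocytes CYP1B1 pointed up and AHRR down with both activated media, without passing the test. CYP1B1 stood at 309, 329 and 312 CPM with resting MSC-CM of donors AG1, ORC and PC. With TLR-MSC-CM it was at 360, 506 and 351 CPM and with STING-MSC-CM at 364, 429 and 348 CPM, higher than with resting medium in 3 of 3 donors each. The log2 fold changes were 0.35 ± 0.12 and 0.25 ± 0.12 (adjusted p = 0.494 and 0.634), and both were 0.16 without the ORC library of the activated medium, of which the TLR one is the library high in interferon-induced genes. AHRR was lower with TLR-MSC-CM in 3 of 3 donors, at 11.5, 12.5 and 9.44 CPM against 13.1, 14.4 and 12.4 CPM (−0.28 ± 0.112, adjusted p = 0.494). With STING-MSC-CM it was at 12.6, 12.2 and 12 CPM, again lower in 3 of 3 (−0.12 ± 0.111, adjusted p = 0.759).

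AHR in synoviocytes had means of 438, 441 and 440 CPM in resting, TLR and STING medium. IL4I1 with STING-MSC-CM (7.28, 7.22 and 7.35 CPM) lay above resting medium (6.85, 4.95 and 5.77 CPM) in 3 of 3 donors, by 0.30 ± 0.141 (unadjusted p = 0.0499, adjusted p = 0.634). KMO differed by its ORC library in resting medium, which held 3 counts against 73 and 57 in the activated media of that donor, while AG1 and PC held 25 to 54 counts throughout. CYP1A1 was at 1.35, 1.36 and 1.95 CPM on average. No member was called with either medium against resting, where 0% of 14584 genes passed and 1465 (TLR) and 1109 (STING) had an unadjusted p under 0.05, or between both media (0%, 294 genes). Of the 7 members tested, 2, 1 and 0 had an unadjusted p under 0.05 in these comparisons, and DESeq2 called none, beside 0.0137%, 0% and 0% of genes.

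In chondrocytes the members differed more by the donor of the medium than by its activation. With medium of ORC, AHR was at 315 to 373 CPM against 504 to 584 CPM with medium of AG1 and PC. AHRR was at 10.8 to 15.8 against 26.1 to 30.5 CPM, CYP1A1 at 5.93 to 13.5 against 30.7 to 48.4 CPM and TIPARP at 21.4 to 23.0 against 33.1 to 40.7 CPM. CYP1B1 was the reverse, as given above. These 5 genes thus lay outside the range of the other 6 libraries, as 36.9% of all genes did, while IL4I1 overlapped. The donor of the medium and any handling that these 3 libraries shared cannot be told apart.

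No member was called in chondrocytes with TLR-MSC-CM or STING-MSC-CM against resting medium or between both, with 0% of 14304 genes called by edgeR and 80, 130 and 116 at an unadjusted p under 0.05. None of the 7 members tested had an unadjusted p under 0.05, and DESeq2 called none of them and 0% of genes. Without the ORC libraries the count of members called stayed at 0 in the 3 comparisons, and the spread narrowed. The log2 fold change of AHR with STING-MSC-CM was then 0 ± 0.0995 and that of AHRR −0.03 ± 0.112, against 0.01 and 0.03 with them. CYP1B1 with STING-MSC-CM was 1.13-fold higher (0.18 ± 0.092, unadjusted p = 0.0734, against 0.07 with them). CYP1A1, the chondrocyte-high target, had 30.7 and 45.3 CPM with resting medium of AG1 and PC, 48.4 and 35.2 CPM with TLR-MSC-CM, and 33.5 and 34.0 CPM with STING-MSC-CM.

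**Figure D5:**
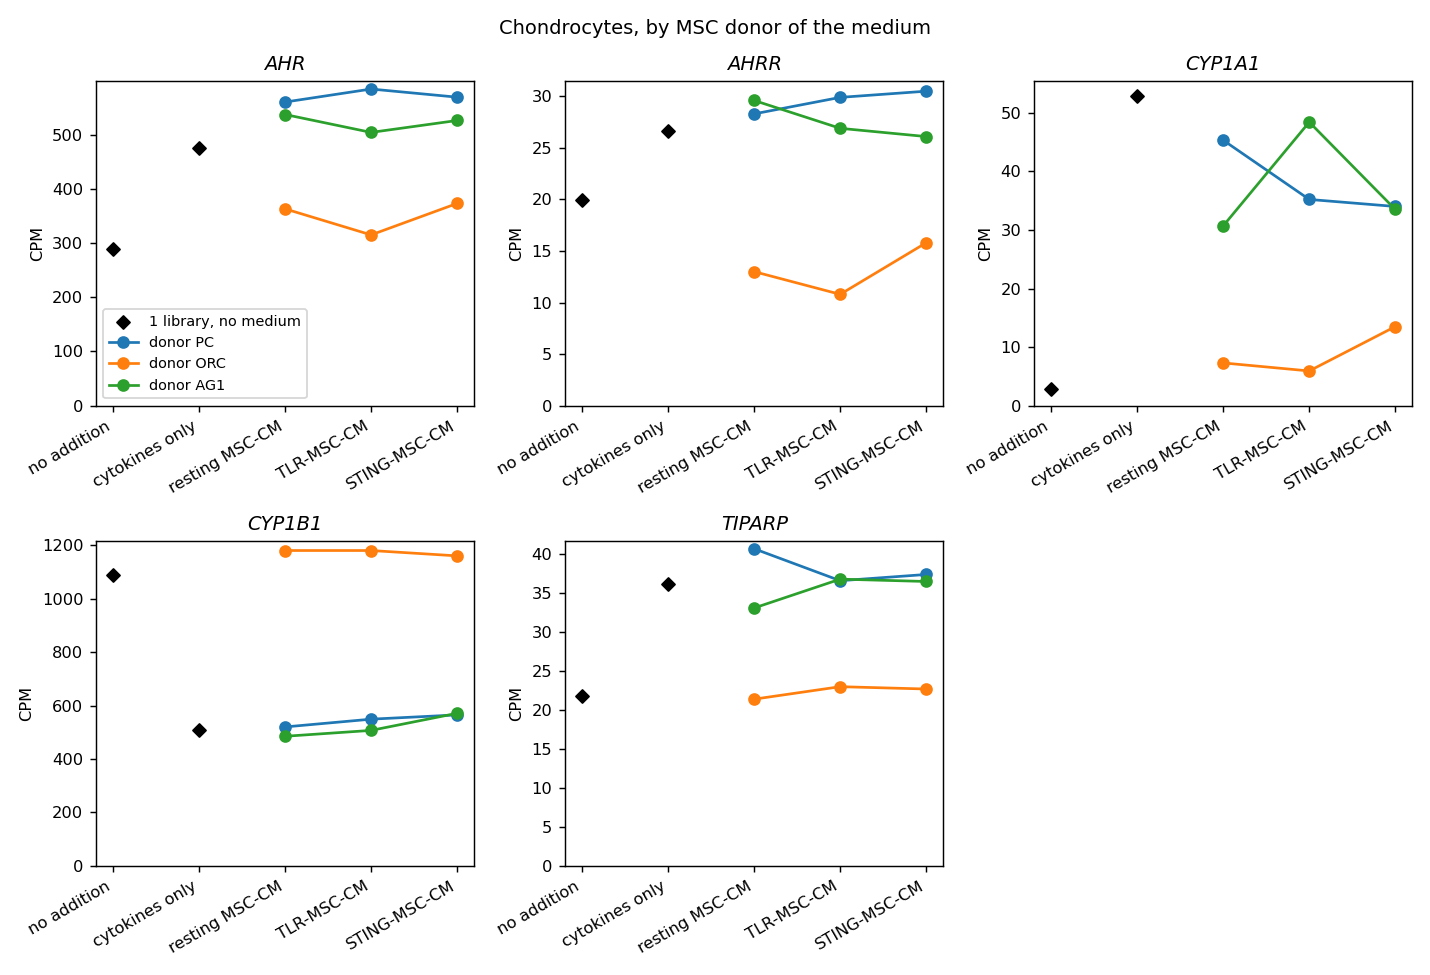
CPM (vertical axis, from 0) of AHR, AHRR, CYP1A1, CYP1B1 and TIPARP in chondrocytes. Black diamonds are the single libraries with no addition and with cytokines only, and lines join the 3 media of each MSC donor. Donor ORC lies apart from AG1 and PC in each panel, below them for AHR, AHRR, CYP1A1 and TIPARP and above them for CYP1B1.

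The cytokines themselves can be set against no addition in 1 library per arm, which allows no test, and the intervals here are 95% exact intervals for counting error only. In synoviocytes AHR was at 459 CPM with IL-1β and TNF-α and at 180 CPM without, a ratio of 2.54 (2.46 to 2.63). AHRR had a ratio of 2.41 (1.99 to 2.93), CYP1A1 of 3.27 (1.85 to 6.07, on 48 and 17 counts) and KMO of 6.13 (2.7 to 16.3, on 37 and 7 counts). CYP1B1 went down, from 777 to 327 CPM, a ratio of 0.421 (0.411 to 0.431). Thus 4 members were more than 1.5-fold higher and 1 lower in synoviocytes, where 14.1% of genes passed that fold in either direction.

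In chondrocytes CYP1A1 went from 75 counts (2.78 CPM) to 2109 counts (52.9 CPM), a ratio of 19 (15.1 to 24.3). AHR had a ratio of 1.64 (1.60 to 1.68), TIPARP of 1.66 (1.5 to 1.83) and AHRR of 1.34 (1.20 to 1.49), while CYP1B1 was at 0.464 (0.456 to 0.473). The count past 1.5-fold was 3 higher and 1 lower, with 24.7% of genes past it. In macrophages 0 of 8 members with enough counts passed 1.5-fold, against 3.8% of genes, and AHR was at 41.3 and 42.7 CPM with and without cytokines. IDO1 in macrophages was at 48.7 and 38.5 CPM, a ratio of 1.27 (1.16 to 1.38). The values with MSC-CM stood near the library with cytokines only in synoviocytes and in chondrocytes of AG1 and PC media. In ORC chondrocytes CYP1B1 (1160 to 1180 CPM) stood near the library with no addition (1090 CPM) instead.

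Whether the media acted differently on different cell types was tested as an interaction over 27 libraries. For TLR-MSC-CM and STING-MSC-CM and each pair of cell types, 0% of 16584 genes and 0 of 9 members were called by edgeR. The counts of genes at an unadjusted p under 0.05 ran from 285 to 726, with no member among them. DESeq2 called no member, beside 0% of genes for TLR-MSC-CM and, for STING-MSC-CM, 0.00603% in chondrocytes against synoviocytes, 0.0121% in macrophages against synoviocytes and 0.0241% in macrophages against chondrocytes. AHRR came nearest with STING-MSC-CM, where its effect in macrophages exceeded that in synoviocytes by 0.64 ± 0.419 log2 units (adjusted p = 1, and 0.174 with donor blocks).

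The rest of the pathway was read from lists drawn up with earlier results known, namely 24 tryptophan genes, 22 of them in the tables, and 18 receptor pathway genes, 16 of them in the tables. Within a cell type no gene of either list was called in any comparison, by edgeR with or without the donor or by DESeq2. In the unadjusted test, TDO2, a dioxygenase with the same reaction as IDO1, was at 6.85 CPM with the STING agonist in MSC and 3.63 CPM untreated (3 of 3 donors, unadjusted p = 0.027). In synoviocytes SLC7A5, a subunit of the large neutral amino acid transporter that carries tryptophan, was lower with TLR-MSC-CM (135 against 177 CPM) and with STING-MSC-CM (129 CPM) in 3 of 3 donors each (adjusted p = 0.497 and 0.634). KYAT3, a kynurenine aminotransferase, was lower there too (19.7 and 19.3 against 23.1 CPM), and SLC36A4, an amino acid transporter, was higher (18.5 and 18.1 against 15.2 CPM), with adjusted p values of 0.494 and 0.634 in both. GOT2 was at 108 against 121 CPM with STING-MSC-CM.

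NQO1, a quinone reductase that AHR and NRF2 both regulate, was at 17.9 against 14.2 CPM with TLR-MSC-CM in synoviocytes (adjusted p = 0.494) and at 22.5 against 16.2 CPM with STING-MSC-CM in macrophages (adjusted p = 0.907), higher in 3 of 3 donors in both. In chondrocytes STING-MSC-CM against resting medium gave TDO2 at 2.12 against 3.19 CPM and AFMID, which hydrolyses the product of IDO1, at 1.97 against 1.21 CPM (adjusted p = 1 for both). SLC3A2, the partner of SLC7A5, was at 108 CPM with STING-MSC-CM and 127 CPM with TLR-MSC-CM (adjusted p = 1). QPRT, the enzyme that feeds the pathway into NAD synthesis, was at most 0.245 CPM in synoviocytes.

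Between cell types, counts of both lists are given beside the share of all genes called, and nothing particular to either list is read from them. Of 20 tryptophan genes tested, 10 were higher and 4 lower in macrophages than in synoviocytes, and of 15 receptor pathway genes 9 were higher and 3 lower, beside the 70.2% of genes called. HAAO, which acts after KYNU and KMO in the pathway, was at 6.10 CPM in macrophages and 0.0696 CPM in synoviocytes with resting medium (adjusted p = 2.34e-09). WARS1, an interferon-inducible tryptophanyl-tRNA synthetase, was at 1360 CPM in macrophages against 155 CPM in chondrocytes (adjusted p = 1.1e-09). ARNT2, a partner protein of the same family as ARNT, was at 0.36 CPM in macrophages against 46.5 in synoviocytes and 55.4 CPM in chondrocytes (adjusted p = 3.04e-16 and 1.71e-16). CYP2S1, another receptor target, was at 354 CPM in macrophages against 0.185 CPM in synoviocytes (adjusted p = 2.12e-15). SLC7A8, an amino acid transporter, was at 130 CPM in macrophages and 0 CPM in synoviocytes, and AADAT, an aminotransferase, at 0.0283 and 2.13 CPM. SCIN (383 and 1.94 CPM) and ASB2 (5.74 and 0.268 CPM) were also higher in macrophages. Between chondrocytes and synoviocytes the tryptophan genes called were 2 higher and 4 lower, among them SLC7A5 (75.8 and 177 CPM), WARS1 (155 and 264 CPM) and SLC36A4 (27 and 15.2 CPM), and the receptor pathway genes 4 higher and 2 lower, EREG (3.36 and 0.38 CPM) among them, beside 21.4% of all genes. Against chondrocytes, macrophages had 9 tryptophan genes higher and 4 lower and 8 receptor pathway genes higher and 4 lower, beside 69.6% of all genes. NQO1 was at 36.8 CPM in chondrocytes and 14.2 CPM in synoviocytes with resting medium (adjusted p = 0.000461).

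The genes whose pattern was most like that of a member were sought by Pearson correlation of log2 CPM, as a description over libraries that share depth, donors and media. Over the 12 MSC libraries HEXIM1 (r = 0.971, Spearman rho = 0.951) and CD40 (r = 0.963, rho = 0.937) were nearest to IL4I1, followed by TM9SF1, FBXO16 and CTSB (r = 0.95 to 0.961). Over the 27 joint cell libraries with medium, centred on each cell type, ABCC1 (r = 0.886) and HMOX1 (r = 0.871) were nearest to AHRR, CXCL8 (r = 0.905) and IER3 (r = 0.902) to CYP1A1, LRRK1 (r = 0.925) to CYP1B1 and ASTN2 (r = 0.937) and SRGN (r = 0.933) to TIPARP. Next came NELL2, GRAMD4 and DMXL2 for AHRR, CYTH1, DOCK8 and FLCN for CYP1A1, SCARB2, SH2D4A, PI15 and NACC2 for CYP1B1, and ULK2, IL10RB and ITGA8 for TIPARP, with r between 0.865 and 0.926. IDO1 and KYNU had too few counts in MSC for such a comparison. For AHRR, CYP1A1, CYP1B1 and TIPARP the ORC chondrocyte libraries, which stand apart, are among the points.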

How the data were processed

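RNA of 12 MSC and 33 joint cell libraries was sequenced. Per the study's methods, the authors removed adapters (cutadapt 1.12), mapped to the horse build EquCab3.0 (STAR) and counted per gene (HTSeq 0.11.0), and they deposited raw counts per protein-coding gene in one table for MSC and one for joint cells. Here the deposited counts were tested with edgeR 4.0.16 (quasi-likelihood test, TMM scaling) in R 4.3.3 after keeping genes with a total of at least 10 counts, with Benjamini-Hochberg adjustment over all genes tested and a threshold of 0.05. Comparisons of MSC used the 9 libraries of the untreated, TLR3 and STING conditions (all 12 for CpG), joint cell comparisons the 9 libraries with medium of a cell type, and cell type comparisons and interactions all 27. Errors are SE. The script was tested on simulated data with known changes. DESeq2 1.42.0, RLE scaling, other filters, leaving out each library, a donor block, and the study's thresholds (p of 0.05 and a log2 fold change of 2) were alternatives. Leaving out the ORC chondrocytes, the alternatives to the blocked macrophage fits, and the recount over genes with 10 counts in both cell types, were chosen after seeing the data.

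The members and gene lists were chosen with earlier results of these data known. All 9 members are named in each comparison, list genes are named where the unadjusted p was under 0.05 within a cell type, up to 5 by the smallest p, or among the 5 largest called changes between cell types, and the genes most like a member are the 5 with the highest Pearson r among genes with at least 10 counts in at least 3 libraries. The labels give a code for each library, which pairs the groups and is read here as the MSC donor. Same-donor deviations correlated at 0.657 to 0.905 in MSC, 0.591 to 0.902 in chondrocytes, 0.359 to 0.601 in macrophages and −0.395 to 0.387 in synoviocytes. The block was fitted as an alternative because the study's methods state no donor term. Intervals and limits cover counting error only. Libraries with cytokines only and with no addition have no replicate and entered no test. No column was left out (0). A gene that the naming rule selects is not reported here. The build of the annotation table used for names was not used for coordinates.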

Additional observations from a re-analysis of the deposited data

Results flagged for a closer look

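For AHRR, every donor's value lay on one side in synoviocytes and on the other in macrophages when medium of STING-activated MSC was compared with resting medium. Its log2 fold change was −0.12 in synoviocytes, lower in 3 of 3 donors (edgeR adjusted p = 0.759), and 0.53 in macrophages, higher in 3 of 3 donors (adjusted p = 0.907). The test of the difference gave 0.64 ± 0.419 by edgeR (unadjusted p = 0.14, adjusted p = 1) and 0.64 ± 0.173 with donor blocks (unadjusted p = 0.00135, adjusted p = 0.174), so it did not pass. Over 27 left-out libraries the difference ran from 0.53 to 0.79.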

How the results depend on the processing

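The count of members called depended on the processing in macrophages with STING-MSC-CM against TLR-MSC-CM, where it was 0 without a donor term, 1 by DESeq2 and 2 with the replicate block. Within donors it was 4 by DESeq2 and 4 without a filter (AHRR, KYNU, IL4I1 and CYP1B1, beside 5.06% and 3.6% of genes), and 0 to 3 over the left-out libraries (0% to 2.92% of genes). For STING-MSC-CM against resting MSC-CM within donors it was 0, but 2 by DESeq2, 2 without a filter (AHRR and KYNU, beside 2.3% and 1.29%) and 0 to 2 over the left-out libraries (0% to 2.28%). Between chondrocytes and synoviocytes the study's thresholds left 2 of 4 members, beside 7.64% of genes. The block changed the count of members called in no other comparison. In synoviocytes the donor numbers did not correlate in every pair.

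Some estimates without a call changed sign. AHR, AHRR and CYP1B1 in chondrocytes with STING-MSC-CM against resting medium ran from −0.16 to 0.17, from −0.25 to 0.26 and from −0.36 to 0.62 on leaving out 1 library, and AHRR was −0.03 without the ORC libraries. IL4I1 between chondrocytes and synoviocytes ran from −0.06 to 0.18. Over all members and comparisons, 229 of 3507 alternative values changed sign, 0 of them from a called estimate. The causes were not tested. KMO in chondrocytes and synoviocytes, CYP1A1 outside chondrocytes, and IDO1 and KYNU outside macrophages are limited by low counts. Each joint cell type came from 1 horse, so variation between horses was not measured there.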
